A study of Mus musculus with 6 samples.

Results

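Complement genes of stromal cells were followed across the cell classes of a mouse lung single-cell data set. The 9 genes were chosen by name, as complement genes of stromal cells and with earlier results of these data known. They are C1s1, C1ra, C2, C4b, C3, Cfb, C7, Serping1 and Cd55. All 9 were found among the 27998 genes of the count table. Cells came from SMA-GFP;Tbx4cre;RosaTdTomato mice, which carry a green reporter for smooth muscle actin (SMA) and a tdTomato (Tm) reporter switched on by Cre from the Tbx4 gene, so that Tm marks cells with a history of Tbx4 activity. There were 6 samples from 2 days and 3 sort gates, 1 sample for each combination. The SMA+Tm+, the SMA-Tm+ and the SMA-Tm- gate were each taken at d21 from bleomycin-treated mice, bleomycin being an injurious agent given to make lungs fibrotic, and at d0 from normal mice. Every gate was set on cells negative for Epcam, CD31 and CD45. The sources used here do not say how many mice went into a sample.

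Complement is a cascade of plasma proteins that marks targets for removal and can end in a pore through a membrane. In the classical pathway the recognition molecule C1q carries the proteases C1r and C1s, which cut C4 and C2 to form an enzyme that cuts C3; factor B feeds an amplification loop on C3, and C7 takes part in the pore. The liver makes most circulating complement, and fibroblasts are known to make several components locally, together with inhibitors that limit the cascade.

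Each cell's RNA molecules were counted by unique molecular identifiers (UMIs), and levels are given as CPM, the UMIs of a gene scaled to 1000000 UMIs, over the summed cells of a class, with 95% counting intervals. The labels used here do not tie the barcode suffixes 1 to 6 to the samples, so the cells were treated as 1 pooled sample: days and gates were not compared, no test was made, and every interval covers counting error only. Of 10410 barcodes, 9919 cells were kept, with 34177581 UMIs and a median of 2699 per cell. The suffixes held 707 to 3059 barcodes, and 55 of the 10355 different 16-base barcodes were found with more than 1 suffix. Transcripts of 4 Y-linked genes numbered 1049 to 1433 UMIs in suffixes 1 to 3 and 0 to 8 in suffixes 4 to 6, whereas Xist had 3 to 21 UMIs in suffixes 1 to 3 and 3892 to 23303 in suffixes 4 to 6, so sex and suffix cannot be told apart. Mesenchymal cells (2425, by the collagen genes Col1a2 and Col3a1) came mainly from suffix 4 (1753 cells) and suffix 1 (534 cells).

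Mesenchymal cells with a UMI of exactly 1 of the genes Pi16, Npnt and Hhip formed 3 gates of 307, 908 and 548 cells. Other classes were 84 mesothelial cells (the lining of the lung surface), 67 mural cells (the wall cells of vessels), 583 endothelial cells, 112 epithelial cells and 3820 leukocytes, although the sort had been set against the last 3 kinds. Every gated class carried the independent markers of its kind at 50 CPM or more, 5 of 5 for Hhip cells and 6 of 6 for Pi16, Npnt, mural, mesothelial, endothelial, epithelial and leukocyte cells. The 6 leukocyte markers summed to 19 to 46 CPM in the mesenchymal gates, mesothelial cells and mural cells, against 3749 CPM in leukocytes. They summed to 384 CPM in endothelial cells, 1021 CPM in epithelial cells and 3022 CPM in cells that met no gate. The part of this in the levels of those classes was not tested. T and B cells are given beside the members as a measure of free RNA, except for Cd55, which blood cells are known to carry. Of these 1831 cells, 81 were in suffix 1 and 57 in suffix 4, the main sources of mesenchymal cells. The pooled measure can therefore lie under the free RNA of those suffixes. Serping1 in T and B cells was 1.79 CPM pooled and 24.0 CPM in suffix 4, with 0 UMIs in suffix 1, which allow up to 15.7 CPM. A barcode that met gates of more than 1 kind was set aside (756 barcodes), and 2072 cells met none.

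The proteases C1r and C1s are encoded next to each other on chromosome 6 of the mouse genome (GRCm38), C1ra at chr6:124512405-124523443 on the plus strand and C1s1 at chr6:124530345-124542359 on the minus strand, with 6901 bases between the genes. Both genes therefore lie tail to tail, with their start sites on the outer sides. Their promoters are shown because these neighbours had nearly the same order of levels over the cell classes. The windows, from RefSeq (GRCm38.p6), run 5′ to 3′ along each gene from 250 bases before the start site to 50 after it. They are chr6:124512371-124512670 on the plus strand for C1ra and chr6:124542310-124542609 on the minus strand for C1s1, and capitals mark matches to the motifs described at the end.
C1ra: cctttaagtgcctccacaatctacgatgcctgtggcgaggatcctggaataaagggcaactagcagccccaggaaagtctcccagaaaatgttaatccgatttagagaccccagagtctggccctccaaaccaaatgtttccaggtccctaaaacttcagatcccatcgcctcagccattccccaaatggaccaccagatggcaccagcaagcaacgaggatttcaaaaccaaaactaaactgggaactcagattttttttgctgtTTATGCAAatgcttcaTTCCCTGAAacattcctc
C1s1: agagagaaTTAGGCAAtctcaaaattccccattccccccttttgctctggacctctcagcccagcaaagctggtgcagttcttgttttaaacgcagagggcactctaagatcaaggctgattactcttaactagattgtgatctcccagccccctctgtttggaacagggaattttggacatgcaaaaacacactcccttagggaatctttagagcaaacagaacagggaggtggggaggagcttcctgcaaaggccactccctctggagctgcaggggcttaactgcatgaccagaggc

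C1s1 (ENSMUSG00000038521) stood at 422 CPM (interval 385 to 462) in Pi16 cells, 409 (353 to 472) in mesothelial cells, 268 (250 to 287) in Npnt cells, 258 (184 to 353) in mural cells and 70.6 (57.5 to 85.9) in Hhip cells. The intervals of Pi16 and mesothelial cells overlapped, and the mural interval overlapped those of Npnt and mesothelial cells. Hhip cells lay below all the others, and Pi16 cells above Npnt and mural cells. Endothelial cells held 3 UMIs of C1s1 (2.22 CPM), and T and B cells together also 3 (0.538 CPM). At a fixed depth of 1000 UMIs, 37.6% of Pi16 cells, 23.4% of Npnt cells and 6.03% of Hhip cells had a C1s1 UMI, against 0.0555% of T and B cells. C1ra (ENSMUSG00000055172) followed nearly the same order, with 209 CPM (169 to 255) in mesothelial, 193 (168 to 221) in Pi16, 129 (116 to 142) in Npnt, 79.4 (41.0 to 139) in mural and 50.8 (39.8 to 64.0) in Hhip cells. Adjacent C1ra intervals overlapped, except those of Pi16 and Npnt cells, and T and B cells had 0.538 CPM.

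C2 and C4b encode the substrates of C1s, and with Cfb they lie in the complement cluster of the major histocompatibility complex on chromosome 17. C2 (chr17:34862604-34898265) and Cfb (chr17:34856374-34862518) are both on the minus strand, 85 bases apart, and C4b (chr17:34728380-34743882) lies 112491 bases from Cfb. C2 was highest in mesothelial cells, at 291 CPM (244 to 345), against 74.3 (59.1 to 92.2) in Pi16, 35.0 (28.6 to 42.5) in Npnt and 17.7 (11.4 to 26.1) in Hhip cells. Mesothelial cells, 0.847% of all cells, held 24.5% of all C2 UMIs. Mural cells held 2 C2 UMIs, and T and B cells also 2 (0.359 CPM).

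C4b was again highest in mesothelial cells, at 887 CPM (803 to 978), and stood at 389 (353 to 427) in Pi16, 275 (256 to 294) in Npnt, 190 (168 to 214) in Hhip and 159 (102 to 236) in mural cells. Of the 9 genes it differed least between Pi16 and Hhip cells. Alveolar macrophages had 20.4 CPM of C4b, and T and B cells 3.23 CPM, but within suffix 4 the values were 24.9 CPM (18.6 to 32.8) and 16 CPM (4.36 to 41.0), with overlapping intervals. Interstitial macrophages had 40.7 CPM (23.2 to 66.0) from 16 UMIs in 5 cells, and neutrophils 46.5 CPM from 9 UMIs in 1 cell.

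C3, the protein on which all routes of activation converge, lies at chr17:57203970-57228136 on the minus strand. Its promoter (chr17:57228087-57228386, minus strand) is shown because C3, a known acute-phase gene, was found in every mesothelial cell.
C3: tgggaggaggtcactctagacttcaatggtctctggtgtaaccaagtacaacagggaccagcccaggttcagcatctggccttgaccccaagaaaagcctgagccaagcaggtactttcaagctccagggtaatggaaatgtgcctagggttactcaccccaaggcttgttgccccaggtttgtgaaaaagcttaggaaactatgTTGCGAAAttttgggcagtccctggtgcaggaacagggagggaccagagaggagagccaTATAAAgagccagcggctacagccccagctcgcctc
Mesothelial cells had 1986 CPM of C3 (1859 to 2119), and each of the 84 cells held at least 1 C3 UMI. Pi16 cells had 756 CPM (705 to 809), Npnt cells 371 (350 to 394), mural cells 165 (107 to 244) and Hhip cells 106 (89.7 to 124). The intervals of mural and Hhip cells overlapped, and all other neighbours in this order were apart. At 1000 UMIs a cell, 78.6% of mesothelial, 43.1% of Pi16, 27.4% of Npnt and 7.53% of Hhip cells had a C3 UMI, against 0.111% of T and B cells.

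Leukocytes were not free of C3. Classical monocytes had 90.9 CPM (78.0 to 105) with a UMI in 30.2% of 381 cells, neutrophils 67.2 CPM (35.8 to 115), interstitial macrophages 40.7 CPM and alveolar macrophages 24.7 CPM, against 2.33 CPM in T and B cells (1.24 to 3.99). Within suffix 4, alveolar macrophages had 24.9 CPM (18.6 to 32.8) and T and B cells 12 CPM (2.48 to 35.1), with overlapping intervals. Classical monocytes thus reached a level close to that of Hhip cells, with overlapping intervals. Their median depth was 5035 UMIs a cell, against 2479 in T and B cells, and at 1000 UMIs 9.47% of classical monocytes had a C3 UMI.

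Cfb, which encodes factor B of the alternative pathway, was sparse in all classes. It stood at 41.3 CPM (24.9 to 64.5) in mesothelial, 24.5 (16.1 to 35.6) in Pi16 and 10.8 (7.38 to 15.2) in Npnt cells. Hhip cells held 2 Cfb UMIs in 548 cells, and mural and endothelial cells none. A count of 0 allows up to 19.9 CPM in mural cells and 2.22 CPM in endothelial cells. The mural count therefore does not show a level below that in Npnt cells. Alveolar macrophages had 6.98 CPM of Cfb (4.56 to 10.2).

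C7 (chr15:4988762-5063740, minus strand), a subunit of the membrane attack complex, differed from C2, C4b and C3 in mesothelial cells. Unlike the other members, C7 was lower in Pi16 than in Npnt cells. Its promoter (chr15:5063724-5064023, minus strand) is shown because its level differed between suffixes 1 and 4 in each of 4 mesenchymal classes.
C7: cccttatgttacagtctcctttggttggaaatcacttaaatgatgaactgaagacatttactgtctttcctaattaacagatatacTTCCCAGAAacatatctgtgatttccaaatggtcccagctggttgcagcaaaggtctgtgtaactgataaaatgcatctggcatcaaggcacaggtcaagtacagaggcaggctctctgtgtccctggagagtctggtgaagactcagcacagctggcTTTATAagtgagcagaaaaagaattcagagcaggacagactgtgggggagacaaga
Among the 3 gates, C7 was highest in Npnt cells, at 106 CPM (94.7 to 119), with 65.2 (51.1 to 82.2) in Pi16 and 12 (6.99 to 19.2) in Hhip cells. The 150 mesenchymal cells without any gate gene had 128 CPM (94.4 to 169). Mesothelial cells, first for C2, C4b and C3, held only 3 C7 UMIs (6.53 CPM, 1.35 to 19.1). Mural cells held 9 UMIs, all from 2 cells. No T or B cell had a C7 UMI, which allows up to 0.538 CPM.

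Serping1 (chr2:84765387-84775444, minus strand) encodes the C1 inhibitor, which inactivates C1r and C1s. It stood at 1689 CPM (1613 to 1768) in Pi16, 1027 (991 to 1064) in Npnt, 772 (694 to 857) in mesothelial, 496 (390 to 622) in mural and 405 (373 to 440) in Hhip cells. The mural and Hhip intervals overlapped, and the others were apart. At 1000 UMIs a cell, 75.9% of Pi16, 61.4% of Npnt and 28.6% of Hhip cells had a Serping1 UMI, against 0.278% of T and B cells. Within suffix 4, at full depth, 6 of 57 T and B cells had a Serping1 UMI (24.0 CPM), against 386 CPM in Hhip cells. Mesenchymal cells, 24.4% of all cells, held 84.4% of all Serping1 UMIs.

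Cd55 (chr1:130439027-130462744, minus strand) encodes decay-accelerating factor, a membrane protein that breaks up C3 convertases, and it was highest in B cells. They had 313 CPM (292 to 336), with a UMI in 47.3% of 969 cells. Epithelial cells had 63.8 CPM (44.2 to 89.2), Pi16 cells 58.0 (44.7 to 74.1), mesothelial cells 50 (31.7 to 75.1), T cells 42.0 (35.0 to 49.9) and endothelial cells 32.6 (23.7 to 43.8). Npnt cells had 22.9 CPM (17.8 to 29.1) and Hhip cells 12.7 (7.53 to 20.1). No mural cell had a Cd55 UMI, which allows up to 19.9 CPM and does not place mural cells below Hhip cells. Mesenchymal cells held 9.5% of all Cd55 UMIs.

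**Figure D1:**
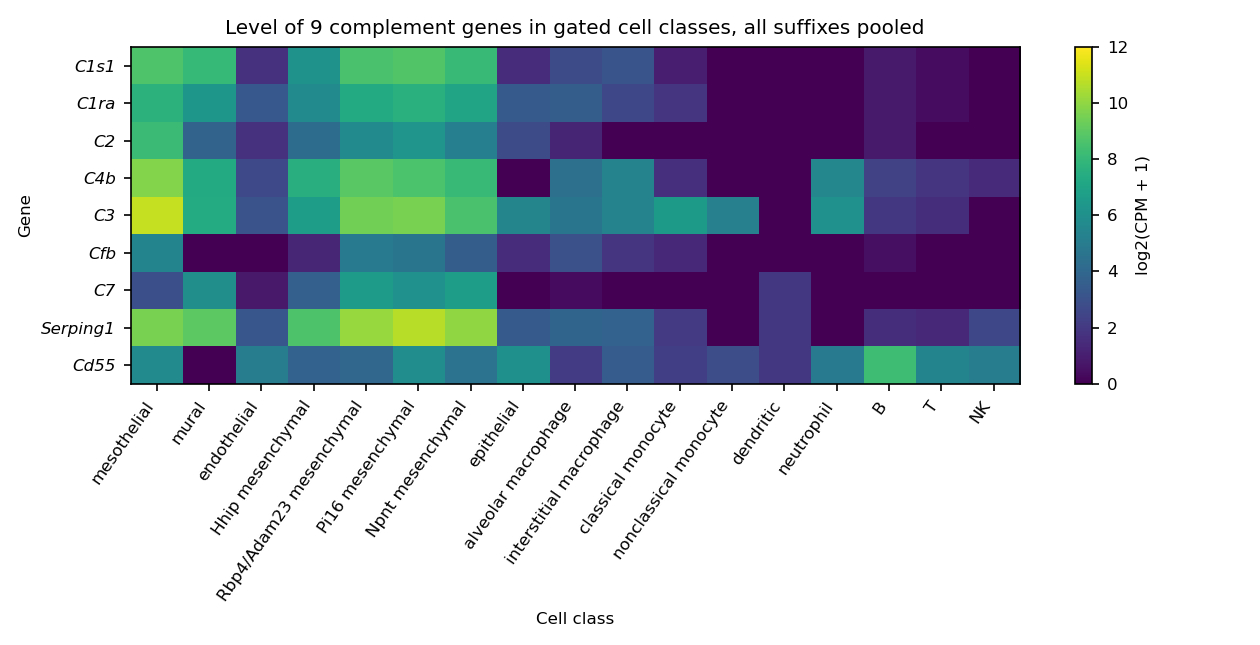
Heat map of the level of the 9 complement genes (rows) in 17 cell classes (columns), coloured by log2(CPM + 1) of summed UMIs with all suffixes pooled. C3 reached 1986 CPM in mesothelial cells, C7 was highest in Npnt cells at 106 CPM among these classes, and Cd55 was highest in B cells at 313 CPM.

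Close copies of 3 members were checked because counting can split reads between them. C1rb, C1s2 and Cd55b reached at most 2.95, 2.18 and 5.17 CPM in any class, from 1 or 2 UMIs. C4a, the copy of C4b, was not analysed here. The sources used here do not state how reads shared between copies were assigned, so the values of C1ra, C1s1, C4b and Cd55 carry that uncertainty.

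Summed over the 9 genes, mesothelial cells had 4653 CPM, Pi16 cells 3671, Npnt cells 2244, mural cells 1231 and Hhip cells 866, against 135 in epithelial cells, 120 in leukocytes and 67.4 in endothelial cells. Mesenchymal cells held 70.1% of all 26126 UMIs of these genes. Single genes made up much of the sums, C3 with 1986 CPM in mesothelial and Serping1 with 1689 CPM in Pi16 cells. Cd55 made up 63.8 CPM in epithelial cells, 69.2 in leukocytes and 32.6 in endothelial cells. A gene was taken as measured in a comparison at 10 CPM or more over both classes together and was called at a ratio of at least 2-fold, with a count under 3 UMIs raised to 3 UMIs. In mesenchymal cells 7 of 8 measured members were at least 2-fold higher than in leukocytes, where 22.0% of all 8828 measured genes were. The list was chosen for stromal cells with earlier results of these data known, so this count describes the choice. Of 14 other measured complement genes, 5 were higher and 8 lower. The median log2 ratio of the members was 5.76, against 0.11 for all measured genes, and the folds reached 284 for C7 (78.3 against 0.276 CPM) and 170 for Serping1 (1021 against 6.0 CPM). Cd55 was the exception, at 24.9 CPM in mesenchymal cells and 69.2 CPM in leukocytes (log2 ratio -1.47, -1.70 to -1.25); 17.2% of all genes were at least 2-fold lower. Within suffix 4, which held 1753 of the 2425 mesenchymal cells, the ratios were smaller: the median of the members was 3.90, Serping1 was 42.0-fold higher (965 against 23.0 CPM), and C7 56.8-fold higher from 2 leukocyte UMIs (log2 5.83, 3.96 to 8.88). There, with 20 B cells among 518 leukocytes, the Cd55 ratio turned to 1.20 (0.60 to 1.86).

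Pi16 cells exceeded Npnt cells in 8 of 9 members, and the median log2 ratio was 0.72, against -0.10 for all measured genes. At least 2-fold higher were 4 of 9: Cd55 (1.34, 0.82 to 1.85), Cfb (1.18, 0.39 to 1.97), C2 (1.08, 0.65 to 1.52) and C3 (1.03, 0.89 to 1.16), where 5.1% of all genes were; 0 were at least 2-fold lower, where 9.43% of all genes were. Serping1, C1s1, C1ra and C4b had log2 ratios of 0.50 to 0.72, with intervals above 0, but C4b turned to -0.61 (-1.20 to -0.03) in suffix 1, with 205 CPM in Pi16 and 314 CPM in Npnt cells. C7 went the other way in the pooled cells, at -0.70 (-1.09 to -0.33), and more so inside each suffix: -1.13 (-1.61 to -0.66) in suffix 1 and -2.23 (-3.21 to -1.39) in suffix 4. Suffix 1 supplied 88 of 307 Pi16 cells and 86 of 908 Npnt cells. The calls of C2, Cfb and C3 lie near the 2-fold limit: only C2 and Cd55 passed it in suffix 1, where C3 had 574 CPM in Pi16 and 561 CPM in Npnt cells, and 1 member passed when cells needed 6 collagen UMIs.

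In the pooled cells, Hhip cells were lower than Npnt cells in each of the 8 measured members. They were at least 2-fold lower in 5, where 9.33% of all genes were. C7 had the lowest ratio, with 12 CPM in Hhip and 106 CPM in Npnt cells (log2 -3.14, -3.94 to -2.44). Inside the suffixes, which the gates draw on unequally, the C7 ratio was lower still, at -4.08 (-5.03 to -3.25) in suffix 1 and -4.11 (-6.01 to -2.73) in suffix 4. C1s1 (-1.92, -2.24 to -1.62), C3 (-1.81, -2.07 to -1.56), Serping1 (-1.34, -1.47 to -1.21) and C1ra (-1.34, -1.72 to -0.97) followed. C4b differed least, at -0.53 (-0.74 to -0.33). The 5 genes also passed the limit in both suffixes taken alone. In suffix 1, Cd55 was instead higher in Hhip cells (39.7 CPM, 15 UMIs in 3 cells) than in Npnt cells (20.6 CPM, 4 UMIs).

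All 9 members were at least 2-fold lower in Hhip than in Pi16 cells, where 7.64% of all genes were (8.57% were higher), with a median log2 ratio of -2.19 against 0.10 for all measured genes. C3 had 106 CPM in Hhip and 756 CPM in Pi16 cells (log2 -2.83, -3.10 to -2.58), and C1s1 70.6 CPM in Hhip and 422 CPM in Pi16 cells (-2.58, -2.91 to -2.27). Serping1 stood at -2.06 (-2.20 to -1.92). The ratio of Cfb rests on 2 UMIs in Hhip cells (-4.11, -7.23 to -2.12, without the raised count), and C4b was closest to the limit, at -1.03 (-1.26 to -0.81). In suffix 1, C4b (-0.42, -1.01 to 0.18) and Cd55 (-0.82, -1.95 to 0.31) did not pass the limit.

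**Figure D2:**
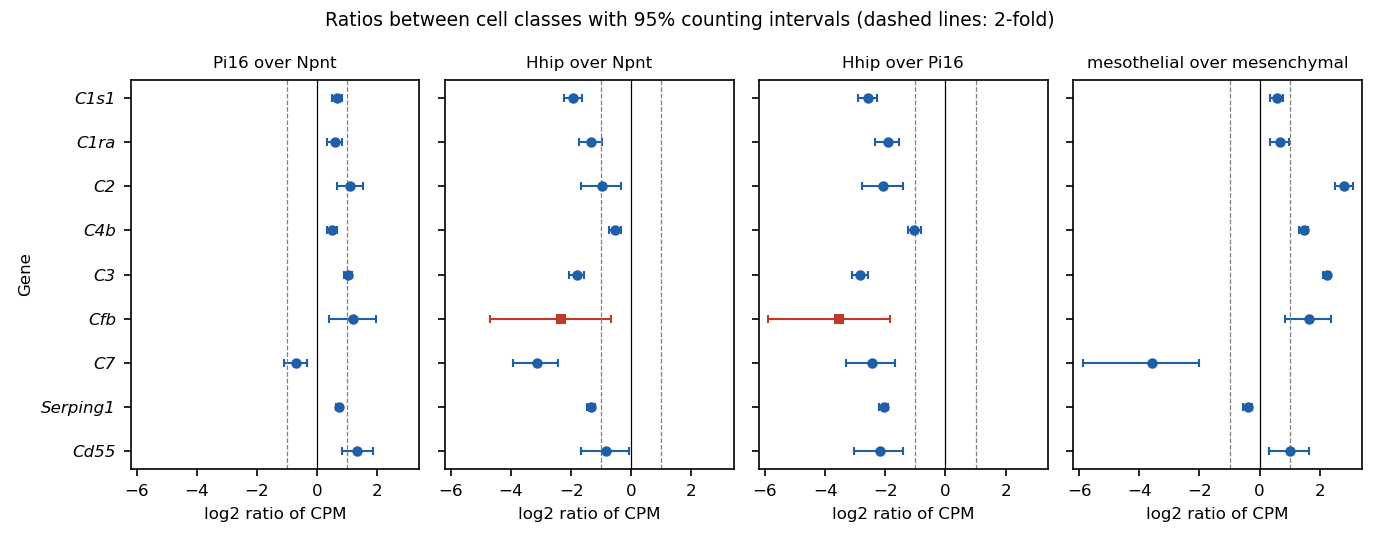
Log2 ratio of the CPM of each member in 4 comparisons of cell classes, the first-named class over the second, with 95% counting intervals and dashed lines at 2-fold. Red squares mark ratios that use the floor of 3 UMIs. All members lie below -1 in Hhip over Pi16 cells, and C7 stands apart from the others in mesothelial over mesenchymal cells at -3.58.

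Mesothelial cells were at least 2-fold higher than all mesenchymal cells in 5 of 9 members, where 7.16% of all genes were. C2 led, with 291 CPM in mesothelial and 42.1 CPM in mesenchymal cells (log2 2.79, 2.49 to 3.08), followed by C3 (2.23, 2.12 to 2.33), Cfb (1.64, 0.85 to 2.36), C4b (1.47, 1.31 to 1.62) and Cd55 (1.00, 0.31 to 1.63). C7 was lower (-3.58, -5.87 to -2.03, from 3 UMIs), where 15.2% of all genes were. C1s1 and C1ra differed by less than 2-fold, at 0.58 (0.35 to 0.79) and 0.66 (0.34 to 0.96). In suffix 4 alone, C2 (2.71) and C3 (2.24) passed the limit, and C4b stood just under it at 0.94 (0.72 to 1.15). C4b in mesothelial cells was 1959 CPM in the 12 cells of suffix 2, against 639 CPM in the 51 cells of suffix 4, and Cd55 had 8 of its 23 UMIs in 1 cell of suffix 2.

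Against Pi16 cells, the highest mesenchymal gate, mesothelial cells were still at least 2-fold higher in C2 (1.97, 1.56 to 2.39), C3 (1.39, 1.26 to 1.53) and C4b (1.19, 0.99 to 1.39), where 11.9% of all genes were; in suffix 4 alone C4b was at 0.54 (0.28 to 0.79). The log2 ratio was below 0 for Serping1 (-1.13, -1.30 to -0.96) and, from 3 mesothelial UMIs, for C7 (-3.32, -5.63 to -1.72). Mesothelial cells were also the deepest stromal class, with a median of 5042.5 UMIs, against 3490 in Pi16 cells.

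Endothelial cells were at least 2-fold lower than mesenchymal cells in 8 of 9 members, where 16.6% of all genes were. Serping1 had 8.15 CPM in endothelial and 1021 CPM in mesenchymal cells (log2 -6.97, -7.97 to -6.13), C3 7.41 CPM in endothelial and 425 CPM in mesenchymal cells (-5.84, -6.90 to -4.96). Cd55 did not pass the limit, at 0.39 (-0.12 to 0.86). Mural cells were at least 2-fold lower in 4 of 9 members, where 4.53% of all genes were (9.37% were higher): C3 (-1.36, -1.99 to -0.80), Serping1 (-1.04, -1.39 to -0.71), C4b (-1.02, -1.66 to -0.44) and C2, from 2 UMIs (-1.67, -4.72 to 0.19, without the raised count). C1s1 was 258 CPM in mural and 274 CPM in mesenchymal cells (-0.09, -0.58 to 0.37). The mural calls rest on 67 cells and ended under other settings: 0 members passed with a stricter cell filter, which left 34 mural cells.

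Members were also counted in single cells, but these counts were not set against those that separate detection of each gene would give. At a fixed depth of 1000 UMIs, mesothelial cells had a UMI of 2.67 of the 9 genes on average, Pi16 cells 2.22, Npnt cells 1.63, mural cells 0.81 and Hhip cells 0.62. At least 3 members were detected in 42 of 84 mesothelial cells (50%, 38.9 to 61.1), 39.0% of Pi16 cells (33.4 to 44.8), 20.2% of Npnt cells (17.6 to 23.0) and 4.52% of Hhip cells (2.92 to 6.65). None of 518 endothelial and none of 1801 T and B cells reached 3 members, which allows shares of up to 0.579% and 0.167%. At full depth the mean number was 5.23 in mesothelial, 3.94 in Pi16, 3.12 in Npnt and 1.23 in Hhip cells.

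**Figure D3:**
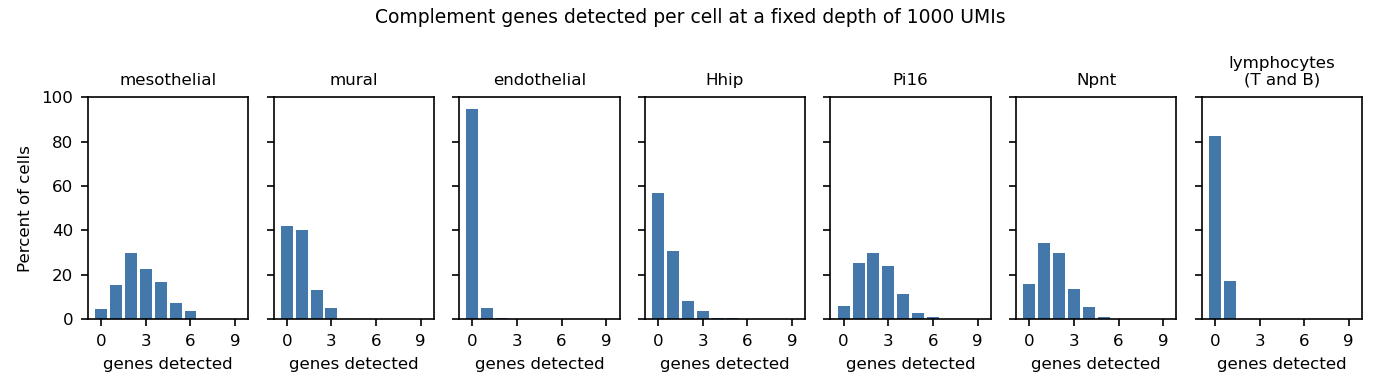
Share of cells (percent) by the number of the 9 complement genes detected in a cell thinned to 1000 UMIs, for 7 cell classes. Cells with 3 or more genes make up 50% of mesothelial, 39.0% of Pi16, 20.2% of Npnt and 4.52% of Hhip cells.

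A further 204 mesenchymal cells held none of the 3 gate genes but Rbp4 or Adam23. Their levels lay between those of Pi16 and Npnt cells for C1s1 (378 CPM), C3 (688), C7 (94.5), Serping1 (1149), C1ra and C2. C4b lay above both gates, at 493 CPM (442 to 549). Cfb, at 31.0 CPM (19.2 to 47.4), was above both, with an interval that overlapped that of Pi16 cells. Cd55, at 14.8 CPM (7.08 to 27.2), was below both, with an interval that overlapped that of Npnt cells. Against Npnt cells 1 member was at least 2-fold higher (Cfb, 1.52, 0.66 to 2.36; 3.38% of all genes were higher and 9.71% lower), and against Pi16 cells 1 was lower (Cd55, -1.97, -3.10 to -1.0; 3.99% of all genes were lower and 2.67% higher). These cells carried all 6 Pi16 markers at 50 CPM or more. They also held UMIs of epithelial markers summing to 821 CPM, of which 1 gene held 769 CPM, with 2 of 6 at 0 UMIs, against 18 to 21 CPM in the 3 gates, and the part of this in the result was not tested. Splitting Npnt cells by a UMI of Cdh22 or Kcnk2 gave 215 and 693 cells; no member differed by 2-fold, where 0.511% of all genes were higher and 2.57% lower, and the median log2 ratio was -0.06 for the members and for all genes.

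C7 differed between the barcode suffixes inside each gate. In Npnt cells it stood at 581, 479, 102, 67.7, 111 and 150 CPM in suffixes 1 to 6, from 86, 10, 15, 752, 26 and 19 cells. In Pi16 cells it was 266 CPM (202 to 345) in suffix 1 and 14.5 (7.48 to 25.3) in suffix 4, in Hhip cells 34.4 CPM in suffix 1 and 3.91 in suffix 4, and in the cells with Rbp4 or Adam23 321 CPM in suffix 1 and 25.8 in suffix 4. Suffix 1 was thus the higher in each of the 4 classes, with log2 ratios of 4.20 (3.29 to 5.24) in Pi16, 3.10 (2.75 to 3.45) in Npnt and 3.14 (1.44 to 5.21) in Hhip cells. C7 was among the 4 highest of 8313 measured genes in Pi16 cells by this ratio, the 3 highest of 8540 in Npnt cells and the 10 highest of 8476 in Hhip cells.

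Among Npnt cells, the difference in C7 was spread over many cells. In Hhip cells it rested on fewer, 13 UMIs in 10 cells of suffix 1 and 4 UMIs in 4 cells of suffix 4. In Npnt cells thinned to 1000 UMIs, 43.4% (32.5 to 54.7) had a C7 UMI in suffix 1 and 6.91% (5.21 to 8.97) in suffix 4, and no cell held more than 5 C7 UMIs. Of the 9 members, only C7 was at least 2-fold higher in suffix 1 in Npnt cells (7.33% of all genes were higher and 3.67% lower) and in Pi16 cells (7.77% of all genes). In Hhip cells C7 and Cd55 were higher and C1ra lower (7.98% and 4.73% of all genes). In the cells with Rbp4 or Adam23 C7 and Cd55 were higher (12.3% of all genes, with 3.43% lower). There Cd55 had only 4 UMIs in suffix 1 and 6 UMIs in suffix 4, and its interval allows either direction (log2 1.11, -1.16 to 3.19). In Pi16 cells C4b was lower in suffix 1 (-1.10, -1.58 to -0.64), with 205 CPM in suffix 1 and 440 CPM in suffix 4, where 4.08% of all genes were. Cd55 in Hhip cells had 15 UMIs in 3 cells of suffix 1 and 2 UMIs in suffix 4. Over all mesenchymal cells Serping1 ranged from 965 to 2046 CPM and C3 from 398 to 1091 CPM between the 6 suffixes. Suffixes 1 and 4 also differ in sex and, being tied to no sample, may differ in day, bleomycin treatment or sort gate. The source of the C7 difference therefore cannot be told apart.

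**Figure D4:**
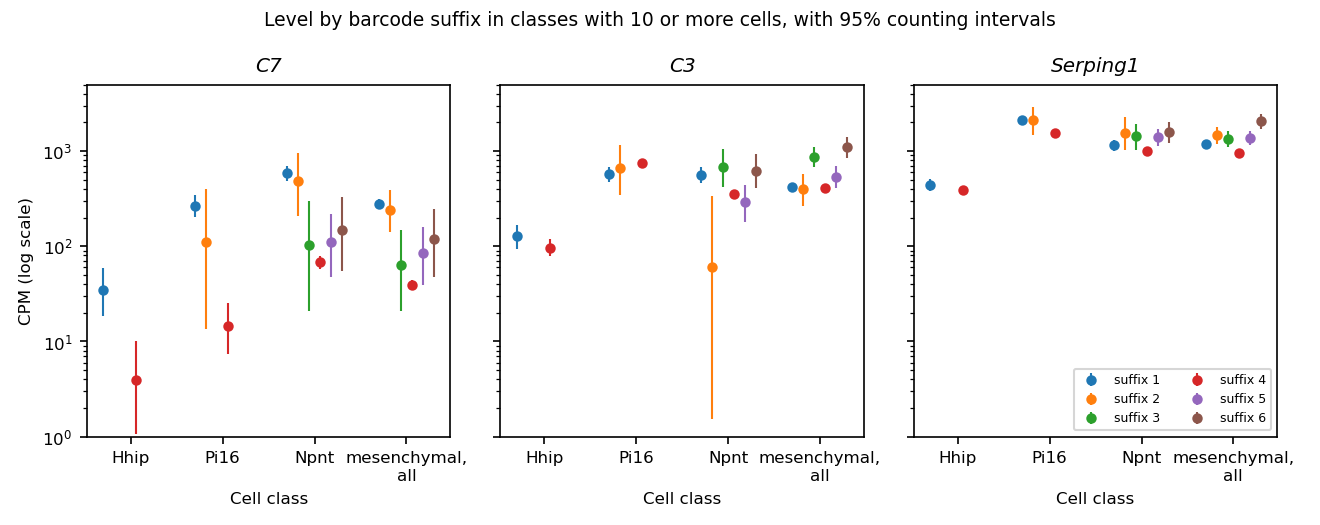
Level of C7, C3 and Serping1 (CPM, log axis) by barcode suffix in Hhip, Pi16, Npnt and all mesenchymal cells, where a class had at least 10 cells in a suffix; points are levels and bars 95% counting intervals, with interval ends under 1 CPM drawn at 1. C7 in Npnt cells falls between 67.7 CPM in suffix 4 and 581 CPM in suffix 1, while Serping1 in all mesenchymal cells lies between 965 and 2046 CPM.

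Lymphocytes of the same suffix gave the level of free RNA. In the 57 T and B cells of suffix 4, where mesenchymal cells were most frequent, Serping1 stood at 24.0 CPM, C4b at 16 and C3 at 12, from 3 to 6 UMIs each. Hhip cells of suffix 4 had 386, 198 and 96.8 CPM of these genes. The low stromal levels of C3, C4b and Serping1 in Hhip cells were thus well above that measure, whereas the 4 C7 UMIs and 1 Cfb UMI of Hhip cells in suffix 4 (3.91 and 0.977 CPM) lay under the 12 CPM that 0 UMIs in those lymphocytes allow.

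The rest of the system was read from 46 other complement genes, of which 44 were in the table and 27 reached 10 CPM in some class. In mesenchymal cells 5 of 14 measured genes were at least 2-fold higher than in leukocytes and 8 were lower, where 22.0% of all genes were higher and 17.2% lower. C1qa, C1qb and C1qc, the chains of the recognition molecule, stood at 2.29, 3.31 and 2.42 CPM in mesenchymal cells and at 4283, 4044 and 3833 CPM in the 75 interstitial macrophages. The proteases that C1q carries, C1ra and C1s1, were thus highest in other classes than its chains. Interstitial macrophages also led for the receptors C5ar1 (247 CPM) and C3ar1 (201 CPM) and for properdin, Cfp (214 CPM). Hc, which encodes C5, was highest in epithelial cells (556 CPM). C6 stood at 60.1 CPM in epithelial and 17.2 CPM in Npnt cells. Pi16 and Hhip cells held 0 C6 UMIs, which allow up to 2.72 and 2.12 CPM.

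Among the other complement genes, 3 of 5 measured regulators were at least 2-fold higher in Hhip than in Pi16 cells and 1 was lower. Against Npnt cells 2 of 6 were higher and 1 lower, where 5.38% of all genes were higher and 9.33% lower. The members Serping1 and Cd55, which also encode regulators, were at least 2-fold lower in Hhip than in Pi16 cells. Clu, clusterin, stood at 188 CPM in Hhip and 31.7 CPM in Pi16 cells (log2 2.57, 2.05 to 3.12), Cd59a, which blocks pore assembly, at 115 CPM in Hhip and 29.0 CPM in Pi16 cells (1.99, 1.44 to 2.58), and Csmd1 at 126 CPM in Hhip and 9.06 CPM in Pi16 cells (3.79, 2.88 to 4.88). Of 7 measured genes, 3 were thus at least 2-fold higher in Hhip than in Pi16 cells and 2 lower, where 8.57% of all genes were higher and 7.64% lower. Clu was highest in mesothelial cells (690 CPM, 616 to 770). Colec12, a membrane collectin, stood at 195 CPM in Pi16 and 162 CPM in Hhip cells, against 400 CPM in Npnt cells, and Vtn, vitronectin, was found almost wholly in mural cells (146 CPM), although Vtn was also a marker used to check them. Cr1l, which encodes the rodent regulator Crry, showed no such division, with 48.9 to 97.0 CPM in the 3 gates, mesothelial, mural and endothelial cells and all leukocytes.

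**Figure D5:**
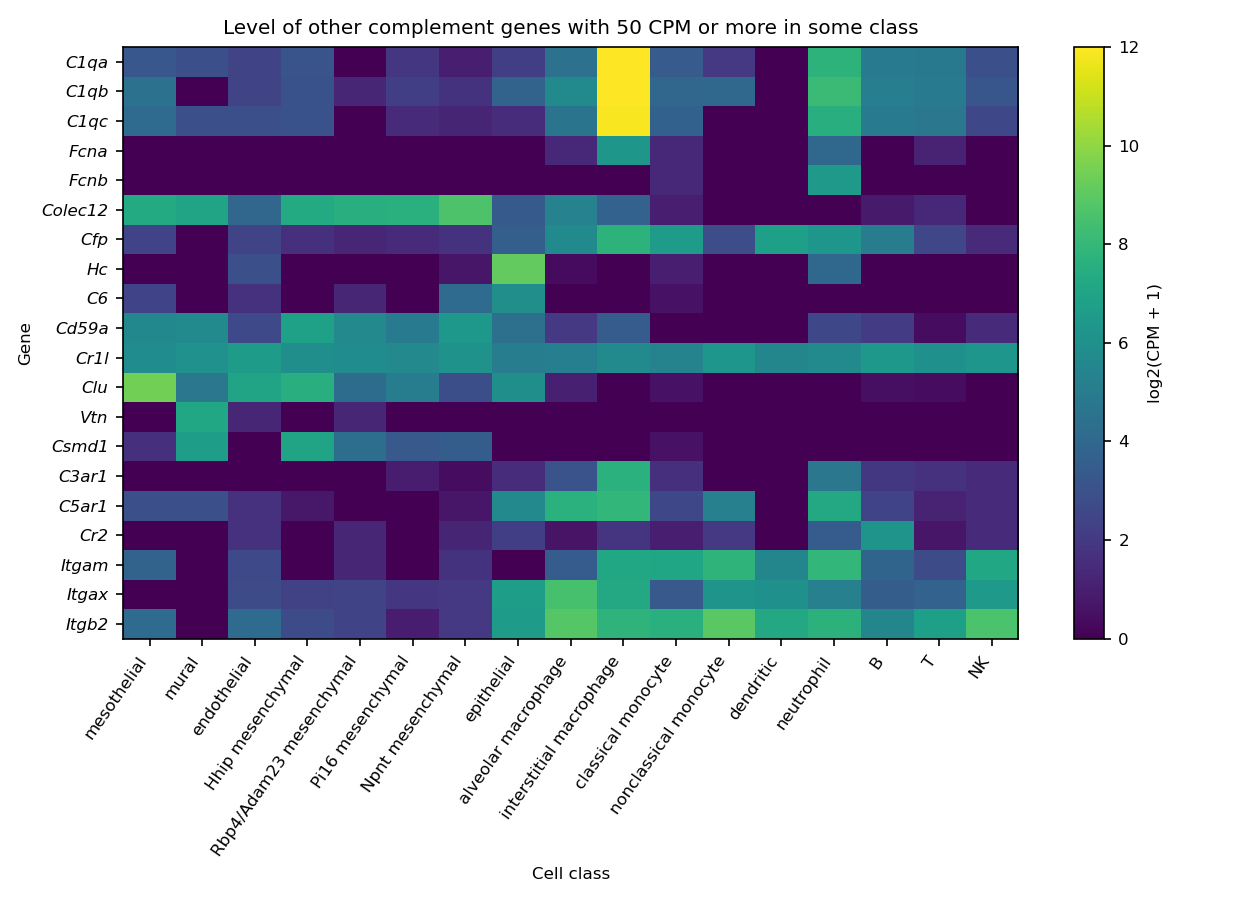
Heat map of the level of 20 other complement genes with 50 CPM or more in some class (rows), as log2(CPM + 1), in 17 cell classes (columns). C1qa, C1qb and C1qc are brightest in interstitial macrophages, at 3833 to 4283 CPM, while Clu is brightest in mesothelial cells at 690 CPM.

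Lists of inducing receptors, interferon response genes and acute-phase genes were also read in the comparison of Hhip with Npnt cells. Of 11 measured cytokine receptor genes 4 were at least 2-fold lower and 0 higher, of 11 interferon response genes 2 were lower and 0 higher, and of 7 acute-phase genes 1 was lower and 1 higher, where 9.33% of all genes were lower and 5.38% higher. In Pi16 over Npnt cells 1 of 11 receptor genes was lower and 1 higher, 2 of 11 interferon response genes were lower and 0 higher, and 1 of 7 acute-phase genes was lower and 0 higher, where 9.43% of all genes were lower and 5.1% higher. In mesothelial over mesenchymal cells 4 of 11 receptor genes were lower and 0 higher, 4 of 12 interferon response genes were higher and 0 lower, and 2 of 7 acute-phase genes were lower and 1 higher, where 15.2% of all genes were lower and 7.16% higher.

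Likeness was described over the 17 classes with at least 50 cells, as Pearson's r of log2(CPM + 10); these classes share libraries and differ in depth, and many genes of stromal cells share the split from leukocytes. C1s1 and C1ra had r = 0.99. Serping1 was close to Pcolce and Col1a2 (0.99 each), although Col1a2 was used to define mesenchymal cells. C1s1 was close to Timp1 and Pcolce, and C1ra to Timp1 and Gpc3 (0.98 to 0.99). C4b was most like Gstm5, Gas1 and Fbln1 (0.95 each), and Cfb like Gabra3, Cdon and Pdpn (0.95, 0.95 and 0.94). C3 was most like Efemp1, Igfbp6 and Gpc3 (0.93, 0.91 and 0.91) and C7 like Slit3, Unc5c and Clec11a (0.99 each). C2 was most like Efna5, Bnc2 and Flrt2 (0.99, 0.99 and 0.97). With the members other than Cd55, C7 had r from 0.57 (Cfb) to 0.89 (Serping1). Cd55 stood apart from the other members, at -0.13 to 0.17, and was most like Pml (0.87), Etnk1 (0.80) and Mif4gd (0.80).

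The promoter windows were searched on both strands for 5 motifs. RefSeq windows were matched for 5 of 9 members (C1ra, C1s1, C3, C7 and Cd55). The C/EBP motif TTGCNNAA, found in 10.8% of 32851 windows, matched in C1ra (bases 267 to 274 of the window), C1s1 (9 to 16 of the window shown) and C3 (206 to 213, upstream of the start site at base 251). A second RefSeq window of C1s1, chr6:124542272-124542571, had no match to any of the 5 motifs. The gamma-interferon motif GAS, TTCNNNGAA, found in 8.30% of windows, matched in C1ra (283 to 291) and C7 (87 to 95). TATAAA, in 13.6%, matched in C3 (265 to 270) and C7 (245 to 250), and the kappaB motif (GGG, NN, TT, N and CC in a row), in 4.79%, matched in Cd55 (190 to 199). The interferon-stimulated response element (GAAA, NN and GAAA in a row), in 3.44%, had no match in these letters. No capitals of 2 motifs overlap in the windows shown, and a match describes letters only.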

How the data were processed

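Lung cells of the 6 samples were profiled with the 10x 3′ v2 kit, per the labels' protocols. The deposited table holds whole UMI counts, not normalized by the authors; a normalized copy was not used. STAR 2.5.1, Cell Ranger 1.3.0 and mm10 are named per the submitters' processing notes, and the sources used here do not state the way cells were called. Barcodes with at least 500 genes and at most 10% mitochondrial UMIs were kept (318 fell under and 105 over), and 75 scrublet doublets (0.75%, called per suffix) were removed. Doublets of 2 cells of 1 kind can remain, and depth per suffix was 2778071 to 12427810 UMIs.

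Classes came from marker UMIs: Ptprc 1 or more for leukocytes, Pecam1 plus Cdh5 2 or more for endothelial, Epcam for epithelial, 2 of Wt1, Upk3b and Msln for mesothelial, 2 of Higd1b, Cox4i2, Notch3 and Gucy1a3 for mural, Col1a2 plus Col3a1 3 or more for mesenchymal cells. A cell that met the mural or the mesothelial gate was not counted as mesenchymal, even with enough collagen UMIs. Leukocytes went to the class with most of its markers, at least 2. UMIs were summed per class. Levels have exact Poisson, shares exact Clopper-Pearson and ratios exact conditional binomial intervals (95%). A count of 0 of a complement gene is given with the limit that 3 counts set. Named genes are all members, other complement genes at 10 CPM or more by their level, and the 3 genes most like a member, except a few genes not reported here. Members and lists were chosen with earlier results of these data known. The comparisons of cells with Rbp4 or Adam23, of Npnt cells by Cdh22 or Kcnk2, of mesothelial with Pi16 cells and of suffixes were added after seeing the data. The ratio procedure was tested on simulated data. Gene coordinates are from GENCODE M21. Python 3.11.15, numpy 2.4.6, scipy 1.17.1, pandas 2.3.3, scanpy 1.11.5 and matplotlib 3.10.9 were used.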

Additional observations from a re-analysis of the deposited data

How the results depend on the processing

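Of 98 member counts recomputed under 14 alternatives, 86 stayed within 1.5 times, and of 824 log2 ratios 654 stayed within the main counting interval. A minimum of 50 CPM left fewer genes to call: 4 members higher in mesenchymal cells than in leukocytes (7 in the report), 1 higher in Pi16 than in Npnt cells (4), 5 of 5 lower in Hhip than in Pi16 cells (9) and 3 higher in mesothelial than in mesenchymal cells (5). In Pi16 over Npnt cells the count was also 2 in suffix 1, 1 with 6 or more collagen UMIs and 2 with a mean over cells. In mural cells, 4 lower members became 0 with at least 1000 genes and at most 5% mitochondrial UMIs, 2 in suffix 1, 1 in suffix 4 and 7 with stromal barcodes kept where another gate was met. Mesothelial cells had 2 in suffix 4. Called ratios that changed sign were Cd55 in mesenchymal over leukocyte cells, 1.20 in suffix 4, C2 in mural over mesenchymal cells, 1.75 in suffix 1, 1.20 without suffix 4 and 0.26 at 1000 UMIs a cell, and Cfb in endothelial over mesenchymal cells, 0.062 in suffix 1. The C2 and Cfb values come from 0 to 2 UMIs raised to 3; the cause of the Cd55 change was not tested. No paired analysis was possible because no cell is tied to a sample and each gate and day has 1 sample. Intervals cover counting error only, without differences between animals. In the 67 mural cells a count of 0 allows up to 19.9 CPM.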
